A study of Homo sapiens with 2 samples.

Results

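S100A1, S100A2 and S100P are 3 of the 15 genes with a symbol starting S100 that had a named measurement among 11564 named genes. They were chosen by the measured log2 differences between the 2 arrays, which ran in opposite directions, S100A2 upward and S100A1 and S100P downward, so these differences are a description and carry no test. Expression was measured in T47D, an established cell line of luminal human breast cancer that expresses the oestrogen receptor. The NC group was 1 array of T47D cells carrying a negative control lentivirus, and the shTRPS1 group was 1 array of T47D cells carrying a lentivirus whose short hairpin RNA targets TRPS1, a GATA-type zinc finger repressor. Both groups thus carried a lentivirus, and the labels give neither the hairpin's sequence nor the time after infection. The arrays were 1-colour NimbleGen whole human genome arrays hybridised with Cy3-labelled cDNA, and each value is the intensity that the authors deposited for a transcript accession. With 1 array per group there was no replicate error, no test and no p-value, and the precision of every difference is limited by this number of arrays.

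S100 proteins are small calcium-binding proteins of vertebrates, each with a pair of EF-hand loops, that mostly work as dimers. Calcium opens a binding face through which they engage target proteins, among them annexins, cytoskeletal proteins and p53, and some are also secreted and act on the receptor RAGE. Most of their genes lie in a cluster on chromosome 1 beside the epidermal differentiation genes, whereas S100P lies on chromosome 4. S100A1 is best known from heart and skeletal muscle, where it binds calcium-handling proteins of the sarcoplasmic reticulum. S100A2 is typical of basal epithelial cells and keratinocytes. S100P, first found in placenta, is made by many carcinomas and binds ezrin and RAGE.

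The stretches of 250 bases before the annotated starts of the 3 genes are shown because TRPS1 recognises GATA motifs and these stretches were searched for them. They are RefSeq sequences of GRCh38.p14, printed 5′ to 3′ on the strand of the gene. The S100A1 stretch is chr1:153628184-153628433 on the plus strand and the S100P stretch is chr4:6693628-6693877 on the plus strand. S100A2 is on the minus strand and has 2 annotated starts, the more upstream with the stretch chr1:153565845-153566094 and the other with chr1:153563888-153564137. Capitals mark the letters TGACTCA, the AP-1 motif, and TATAAA, the TATA box; a GATA motif would have been marked too.
S100A1: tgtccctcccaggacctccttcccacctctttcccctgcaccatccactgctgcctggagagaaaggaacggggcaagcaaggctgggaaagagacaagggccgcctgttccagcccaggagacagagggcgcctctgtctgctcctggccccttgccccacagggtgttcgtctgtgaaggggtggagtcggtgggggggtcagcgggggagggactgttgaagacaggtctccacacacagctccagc
S100A2, upstream start: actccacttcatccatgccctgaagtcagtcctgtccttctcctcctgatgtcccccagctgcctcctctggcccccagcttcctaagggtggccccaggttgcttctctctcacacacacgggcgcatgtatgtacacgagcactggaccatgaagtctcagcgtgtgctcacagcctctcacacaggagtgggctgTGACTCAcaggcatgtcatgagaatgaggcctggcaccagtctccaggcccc
S100A2, other start: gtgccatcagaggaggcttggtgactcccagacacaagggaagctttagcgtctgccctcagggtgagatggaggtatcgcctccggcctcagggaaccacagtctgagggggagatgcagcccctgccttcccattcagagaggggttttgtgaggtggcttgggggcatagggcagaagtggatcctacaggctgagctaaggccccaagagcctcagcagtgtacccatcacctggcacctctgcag
S100P: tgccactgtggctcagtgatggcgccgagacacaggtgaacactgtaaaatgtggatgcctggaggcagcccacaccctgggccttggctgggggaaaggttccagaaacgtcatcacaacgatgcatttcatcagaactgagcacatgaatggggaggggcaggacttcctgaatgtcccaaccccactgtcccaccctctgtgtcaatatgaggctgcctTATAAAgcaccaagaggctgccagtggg
The GATA motif was searched as the letters GATA with A or T before them and A or G after them, and all 3 motifs were searched on both strands. No matches overlapped in the 4 stretches. None of the 4 stretches held a GATA motif, which 22.3% of the 35116 annotated stretches of the same length hold. The AP-1 motif was present once, in the upstream stretch of S100A2, with 45 bases between it and the start, and 4.20% of all stretches hold it. A TATA box was present once, in the S100P stretch, with 22 bases between it and the start, and 10.7% of all stretches hold it. The 4 stretches held 3 to 6 CG dinucleotides, against a median of 11 over all stretches. A match is a description of the letters and not of a bound site, and a missing match says only that these letters are not in this window.

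Before the S100 values, the labels were set against the targeted gene and the markers of the cell type. The intensity of TRPS1 was 726 on the NC array against 603 on the array labelled shTRPS1, which is 17.0% lower (log2 difference -0.27). The difference of the targeted transcript was therefore small, and every direction given here is that of the array labelled shTRPS1. An intensity counted as above background if it exceeded the 95th percentile of 60 olfactory receptor features on its array, a level of 397 for NC and 325 for shTRPS1. Of 12 luminal markers 11 were above background, among them GATA3, the luminal transcription factor (22487 and 25544), and the keratin KRT19 (41417 and 40087). Over these 11 the median log2 difference, shTRPS1 minus NC, was 0.11, with 8 above 0 and 3 under 0. The differences ran from -0.38 for the keratin KRT8 to 0.74 for XBP1. ESR1, the oestrogen receptor, read 541 and 582, close to background, and the oestrogen-responsive TFF1 read 98.7 and 212, at background on both arrays.

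S100A2 was higher in the shTRPS1 array. Its intensity was 228 on the NC array, below the background level there, against 1906 on the shTRPS1 array, well above background. The measured log2 difference, shTRPS1 minus NC, was 3.07. Since the NC value was dim, the difference is given as a bound: S100A2 was at least 4.80-fold higher, taking the NC background level in place of the NC value. S100A2 had 1 named feature, NM_005978, so no other transcript of the gene was there to set beside it.

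S100A1 and S100P were lower in the shTRPS1 array by similar measured amounts, and both were above background on both arrays. S100A1 (feature NM_006271) read 1699 on the NC array against 604 on the shTRPS1 array. Its log2 difference was -1.49, so that 35.6% of the NC intensity was left, a 2.81-fold difference. S100P (feature NM_005980) read 2127 on the NC array against 796 on the shTRPS1 array. Its log2 difference was -1.42, so that 37.4% of the NC intensity was left, a 2.67-fold difference.

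**Figure D1:**
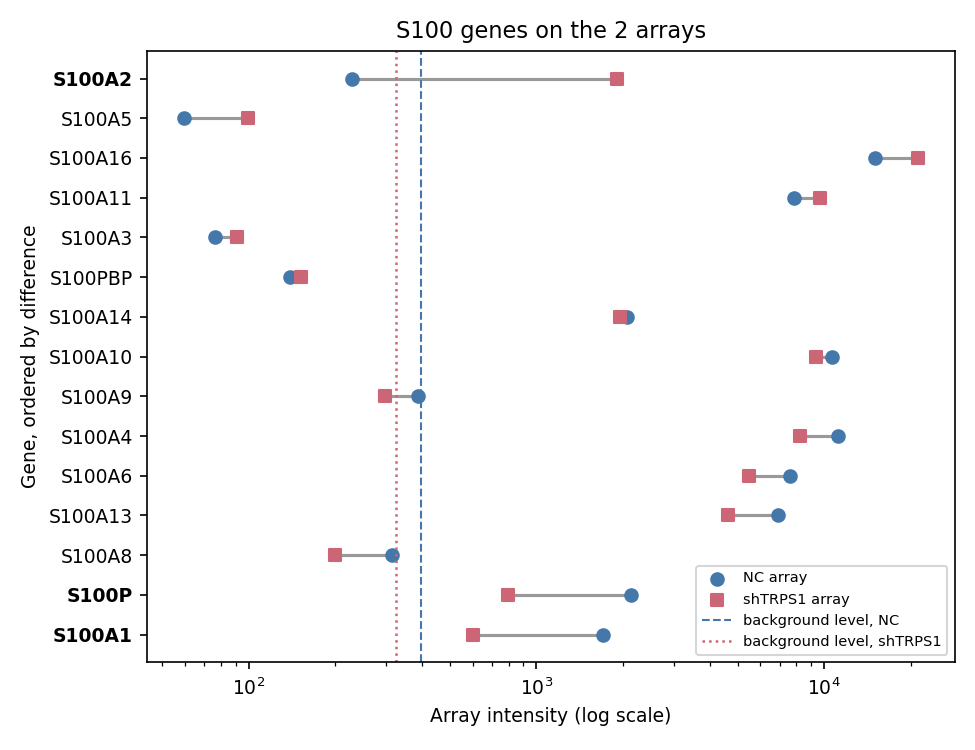
Array intensity (log scale) of each S100 symbol in the NC array (circles) and the shTRPS1 array (squares), ordered by the log2 difference, with the background level of each array as a vertical line. S100A2 crosses from 228, left of both lines, to 1906; S100A1 and S100P stay right of both lines, and levels of different genes cannot be compared because each gene has its own probes.

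A gene was called higher or lower if it was above background on at least 1 array with log2 values at least 1 apart, a 2-fold difference. By this rule 3.78% of the 6949 genes above background were called higher and 2.37% lower, together 6.16%. All 3 genes passed the rule, which follows from how they were picked. Over the 1691 other genes whose mean log2 intensity lay within 0.5 of that of S100A1, the central 95% of the log2 differences ran from -0.88 to 0.96, and over 1574 genes as bright as S100P it ran from -0.85 to 0.92. These ranges describe the spread between genes of that brightness, and nothing is read from the place of the chosen genes in them. No such range is given for S100A2, whose NC reading was at background.

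**Figure D2:**
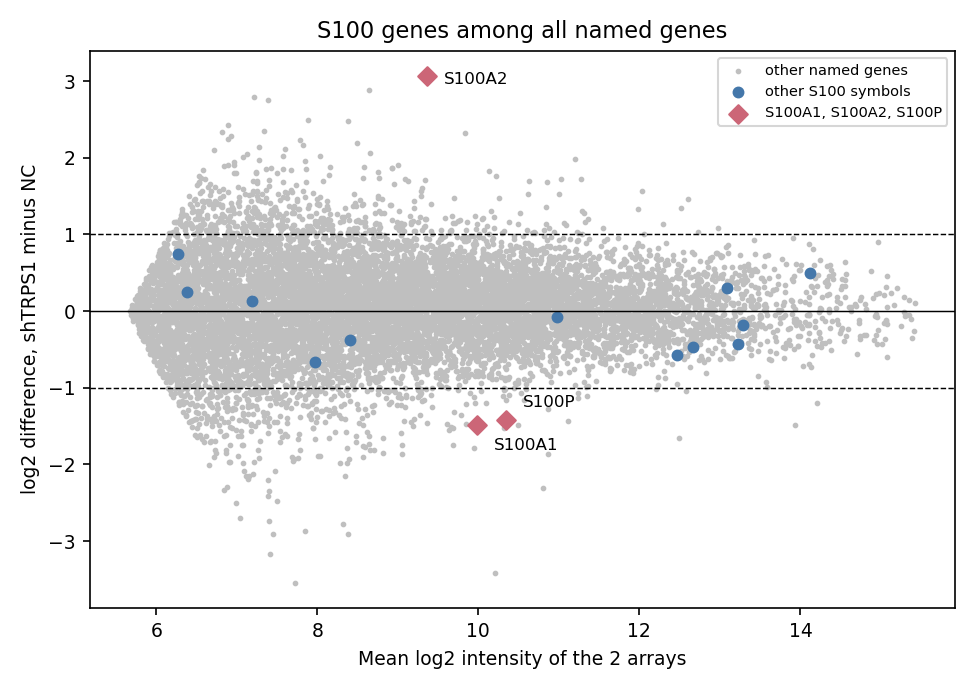
Log2 difference, shTRPS1 minus NC, against the mean log2 intensity of the 2 arrays for every named gene (grey), with the 12 other S100 symbols (circles) and S100A1, S100A2 and S100P (diamonds); dashed lines mark a 2-fold difference. S100A2 lies at 3.07, measured against a dim NC value, S100A1 and S100P lie at -1.49 and -1.42, and the other S100 symbols between the dashed lines.

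The agreement of different features of 1 gene gave a technical check within the arrays. These features belong to different transcript accessions, so their gap can also hold differences between transcripts. In 435 genes with 2 features above background on both arrays, the log2 differences of the 2 brightest features lay a median of 0.26 apart, and the 90th percentile of that gap was 0.68. S100A1, S100A2 and S100P had 1 named feature each, so this check applies to other genes and not to them. Of the 60 olfactory receptor features that set the background level, 4 (6.67%) lay at least 2-fold apart between the arrays.

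None of the 12 other S100 symbols was called in either direction. Of these, 7 were above background, with log2 differences from -0.57 to 0.50 and a median of -0.18, while the median over all genes above background was 0.08. With 6.16% of genes called in all, a count of 0 among 7 is near the background share. Of the 7 genes, 5 had a lower and 2 a higher intensity in the shTRPS1 array, a split that was the same after median-centring, quantile normalization and lowess correction.

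S100A4, a promoter of cell motility that binds non-muscle myosin, had intensities of 11131 and 8265, a log2 difference of -0.43. S100A6, which binds the ubiquitin ligase adaptor CACYBP, had intensities of 7635 and 5494, a log2 difference of -0.47. Both read lower in the shTRPS1 array, by less than 2-fold. S100A10, the partner of annexin A2, had intensities of 10639 and 9393, and S100A14, an epithelial member, had 2070 and 1956, so that both had log2 differences near 0 (-0.18 and -0.08). The higher readings in the shTRPS1 array were those of S100A16, with intensities of 14964 and 21189 and a log2 difference of 0.50, and of S100A11, a member of the cornified envelope of keratinocytes, with 7847 and 9632 and a log2 difference of 0.30.

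S100A13, which takes part in the release of FGF1, was the only S100 gene with 5 features. All 5 read lower in the shTRPS1 array. Its brightest feature, NM_001024212, had intensities of 6913 and 4642, a log2 difference of -0.57. The features NM_001024213 (7657 and 4178), NM_005979 (5591 and 3189) and NM_001024211 (3568 and 1935) had log2 differences of -0.87, -0.81 and -0.88. The fifth feature, NM_001024210, was at background on both arrays, at 309 and 169. With the mean over features in place of the brightest, the log2 difference of S100A13 was -0.80. The 2 features of S100A4 had log2 differences of -0.43 and -0.56.

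The remaining 5 symbols were at background on both arrays. S100A8 (316 and 199) and S100A9 (388 and 298), the subunits of calprotectin known from neutrophils and monocytes, read below the background level of each array. S100A3 (76.3 and 90.8), known from hair cuticle, and S100A5 (59.7 and 99.6) were far below it. S100PBP is a nuclear protein that binds S100P and is no EF-hand protein, although its symbol starts with S100, and it read 139 and 152. No change can be read from values at background. S100A7, S100A7A, S100A12, S100B, S100G and S100Z had no named feature and are not analysed here.

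S100A1 and S100A2 lie in the same cluster, 4 places apart among the 13 measured S100 genes of chromosome 1. Between them lie S100A16, S100A14 and S100A13, with log2 differences of 0.50, -0.08 and -0.57. On the other side of S100A2 lie S100A3, at background, and S100A4. The genes with a measurement that follow S100A1 outwards are CHTOP, an mRNA export factor (9746 and 14712, log2 difference 0.59), SNAPIN, a vesicle protein (0.11), ILF2, an RNA-binding protein (0.46), NPR1, at background, and INTS3, an Integrator subunit (0.79). Of the 10 measured neighbours of S100A1, 5 on each side, S100A2 was the only gene called, and of the 10 neighbours of S100A2 the only gene called was S100A1. S100A1 and S100A2 were picked for their opposite differences, so these calls and their opposite directions follow from the choice. Of the neighbours, 8 of S100A1 and 7 of S100A2 were above background. Over all genes above background 6.16% were called. In the GRCh38.p14 annotation S100A13, on the minus strand, overlaps S100A1 on the plus strand; the sources used here do not say whether the probes tell the strands apart, so the S100A1 and S100A13 readings may not be independent.

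**Figure D3:**
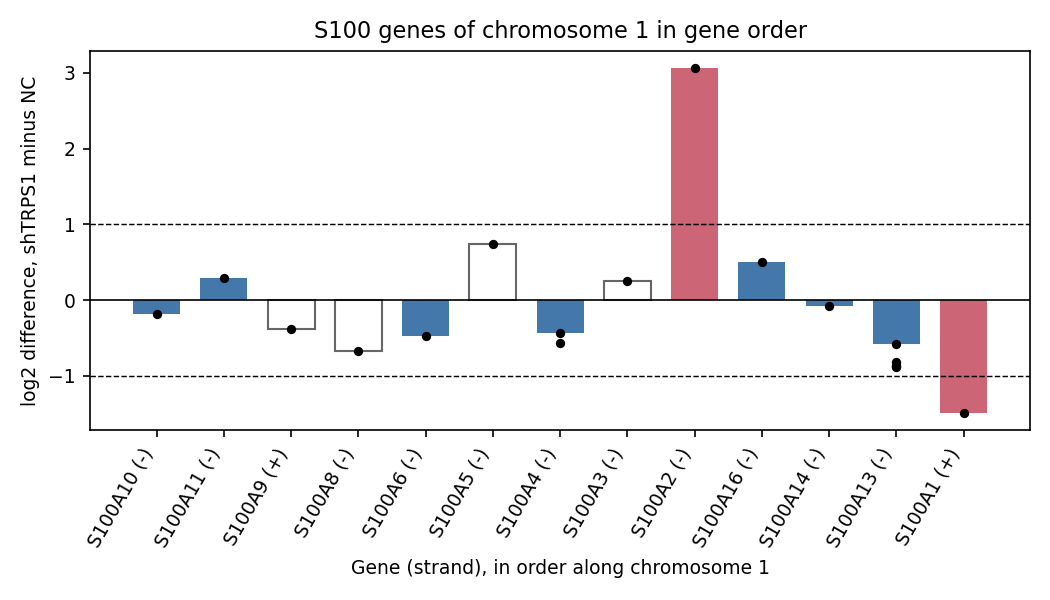
Log2 difference, shTRPS1 minus NC, of the 13 measured S100 genes of chromosome 1 in gene order (not to distance), with the strand of each; bars show the brightest feature, black points each feature, and white bars genes at background on both arrays. S100A2 (3.07) and S100A1 (-1.49) pass the dashed 2-fold lines, while the genes between them range from -0.57 to 0.50.

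The neighbours of S100P on chromosome 4 that were above background differed by less than 2-fold. Of 10 measured neighbours 6 were above background, their log2 differences ran from -0.43 to 0.24 with a median of -0.13, and none was called. With 6.16% of genes called in all, a count of 0 among 6 is near the background share. The nearest were MRFAP1L2 (2525 and 2282, log2 difference -0.15) and MRFAP1L1 (2918 and 3448, 0.24). MRFAP1 had a difference of -0.12, MAN2B2, a lysosomal mannosidase, -0.14, WFS1, the wolframin of the endoplasmic reticulum, -0.13 and TBC1D14, a regulator of autophagy, -0.43. PPP2R2C, BLOC1S4, KIAA0232 and CFAP184 were at background on both arrays.

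The genes whose pair of values was most like that of each S100 gene were found by the Euclidean distance between log2 values over the 2 arrays. Nearest to S100A1 were PTGDS, a prostaglandin D synthase (1524 and 552, distance 0.20), PC, pyruvate carboxylase (1513 and 659, distance 0.21), and ALDH3A1, an aldehyde dehydrogenase (1838 and 532, distance 0.22). Nearest to S100P were KRTAP12-4, a keratin-associated protein (2155 and 751, distance 0.09), KIF1C, a kinesin (1938 and 865, distance 0.18), and LAGE3, a subunit of a tRNA-modifying complex (2416 and 861, distance 0.22). S100A2 had no close match: the nearest were SLC7A8, an amino acid transporter (408 and 2036, distance 0.85), ELAPOR1 (357 and 1170, distance 0.96) and WLS, the Wnt ligand carrier (300 and 995, distance 1.02). With 2 arrays such likeness says only that the readings are similar in size. S100A2 was picked by its measured difference, the largest upward of the genes above background. Its lack of a close match thus follows from that choice.

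Of 36 listed partners and receptors of S100 proteins 29 were measured and 20 were above background. Of these 20, 2 were called higher and 0 lower, beside 3.78% and 2.37% of all genes above background. Their median log2 difference was 0.28, against 0.08 over all genes above background, and 14 of the 20 differences were above 0. TRPV6, a calcium channel that the complex of S100A10 and annexin A2 brings to the membrane, had intensities of 1638 and 3980 and was 2.43-fold higher. AGER, which encodes RAGE, the receptor for S100P and other members, had intensities of 290 and 587 by its brightest feature, at least 1.48-fold higher. Its other feature read 448 and 379, a log2 difference of -0.24, so the features of AGER went in opposite directions. AGER was not called after median-centring (log2 difference 0.98), lowess correction (0.95) or with the mean over its features (0.39), and after quantile normalization its other feature was the brighter, at -0.29. EZR, the membrane and actin linker ezrin that S100P activates, had intensities of 4336 and 5364, a log2 difference of 0.31. ANXA2, the partner of S100A10, had 4375 and 4911, a difference of 0.17, and CACYBP had 566 and 515, a difference of -0.14. RYR2, the cardiac calcium release channel that S100A1 binds, had no named feature. Of 11 annexins measured 8 were above background, with a median log2 difference of 0.07, and 0 were called, which is near the share of 6.16% over all genes.

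Other EF-hand proteins were called in both directions, 2 higher and 2 lower of the 26 above background among 43 measured, with a median log2 difference of -0.06. CALML5, a calmodulin-like protein of differentiating epidermis, had intensities of 1366 and 480, a log2 difference of -1.51 and a 2.85-fold difference downward. TESC, a calcium-binding regulator of sodium-proton exchange, read 503 in the NC array and 136, at background, in the shTRPS1 array, and was at least 1.55-fold lower. LCP1, the actin-bundling plastin of leukocytes, read 94.5 and 382, and GCA, grancalcin, read 164 and 340. In both the NC value was at background and the shTRPS1 value did not exceed the NC background level, so no fold is given. The 4 calls are 15.4% of the 26 genes above background, beside 6.16% of all genes, a description that singles out nothing about the list. Of the 4, CALML5 alone was above background on both arrays, and the others passed the filter through the array where they read higher.

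Among calcium channels, pumps and sensors, 23 were measured and 12 were above background, with a median log2 difference of -0.11. Of these 12, 1 was called higher and 1 lower, beside 3.78% and 2.37% of all genes above background. TRPV6 was the gene called higher. TRPV4, a calcium-permeable channel, read 451 in the NC array and 166, at background, in the shTRPS1 array, at least 1.39-fold lower.

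**Figure D4:**
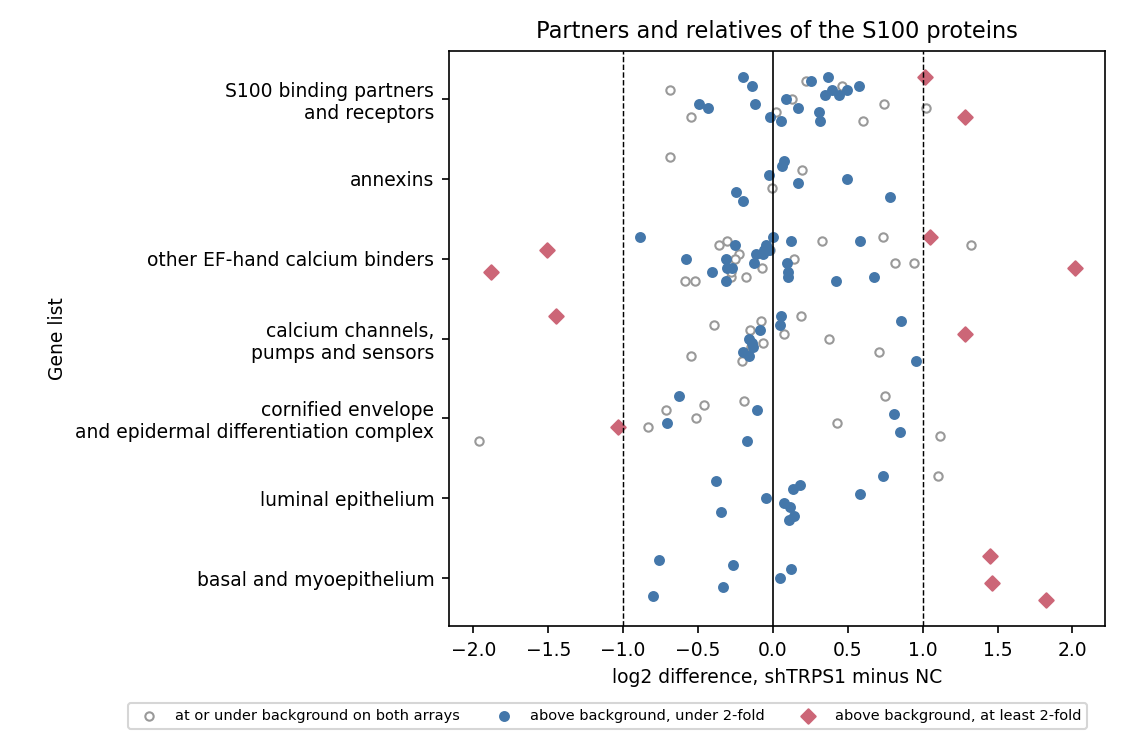
Log2 difference, shTRPS1 minus NC, of the measured genes of 7 gene lists, each point 1 gene; points are spread vertically only to separate them. Open points are at background on both arrays, filled circles are above background and under 2-fold, and diamonds are the genes called, which lie on both sides of 0 for other EF-hand calcium binders and only on the right for basal and myoepithelial markers.

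Because S100A2 is typical of basal epithelium, markers of that and of other cell types were set beside it. Of 12 basal and myoepithelial markers 9 were measured, all above background; 3 were called higher and 0 lower, beside 3.78% and 2.37% of all genes, and the median log2 difference was 0.05. The basal keratin KRT14 had intensities of 598 and 2113, a 3.54-fold difference, and KRT17 had 3735 and 10294, a 2.76-fold difference. The basal markers KRT5, KRT6A, ACTA2 and TRIM29 read lower in the shTRPS1 array, with log2 differences of -0.27, -0.80, -0.33 and -0.76, and KRT6B and ITGB4 were near 0, at 0.05 and 0.12. The summed intensity of the 9 markers was 25715 for NC and 31565 for shTRPS1, and that of the 8 markers other than KRT17 was 21980 for NC and 21271 for shTRPS1. Such sums add probes of unlike brightness and are led by the brightest. The part of these markers in the S100A2 reading was not tested, and more RNA per cell and more cells of a type cannot be told apart in bulk RNA.

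Markers of other cell types were few among the named features. Of 10 leukocyte markers 3 were measured, among them CD14 and LYZ, and all 3 were at background, with a summed intensity of 313 for NC and 207 for shTRPS1. Of 10 fibroblast and endothelial markers 2 were measured, with a summed intensity of 449 and 831: the collagen COL1A1 read 363, at background, and 773, at least 1.95-fold higher, and the endothelial cadherin CDH5 was at background on both arrays. Of 10 muscle and glial markers 2 were measured, with a summed intensity of 9333 and 9316: the cardiac actin ACTC1, which resembles the other actins in sequence, read 9277 and 9255, and SOX10 was at background. The part of these markers in the S100 readings was not tested.

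The differences of the 3 genes kept their direction and stayed past 2-fold under each rescaling of the arrays that was tried. S100A1 ranged from -1.56 to -1.49, S100A2 from 2.99 to 3.07 and S100P from -1.48 to -1.42 on the log2 scale. The genes were chosen by these same differences, and the processing notes describe the deposited intensities as already normalized. The outcome thus shows only that the rescalings moved the values little, and it is no support for the differences. The call of S100A2 was lost where both arrays had to be above background, since its NC value was not.

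**Figure D5:**
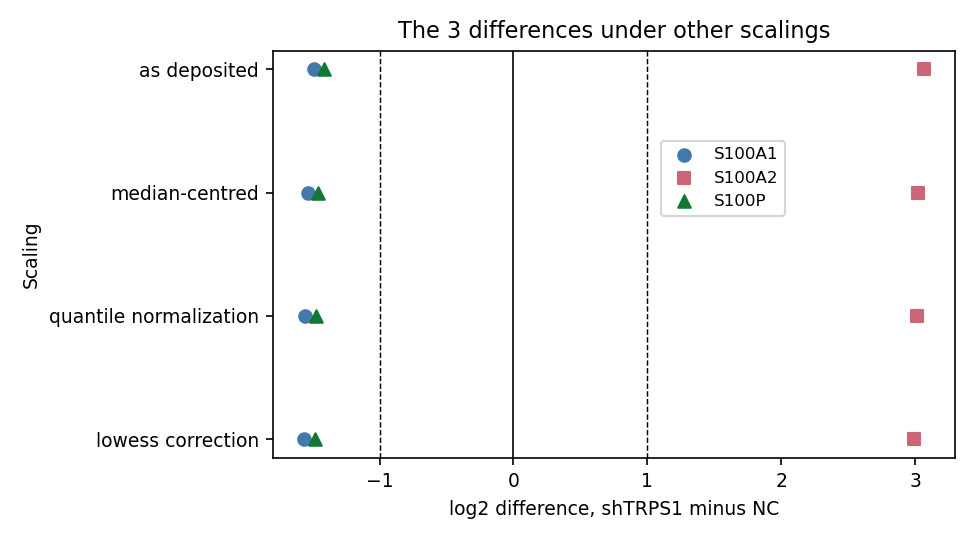
Log2 difference, shTRPS1 minus NC, of S100A1 (circles), S100A2 (squares) and S100P (triangles) with the intensities as deposited and under 3 rescalings; dashed lines mark a 2-fold difference. S100A1 and S100P stay left of -1 and S100A2 stays right of 1, near 3, under all 4 settings shown.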

How the data were processed

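RNA of 1 NC and 1 shTRPS1 array was analysed from the intensities that the authors deposited on a linear scale, 1 per transcript accession. The submitters' processing notes name RMA, which corrects background, normalizes by quantiles and summarises probes; the sources used here give neither its version nor the genome build behind the array. No intensity was under 50, and transcripts under that level are not analysed here. A second table has 8 columns with template names, of which none was used; its list of accessions served for 1 alternative.

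Log2 of the intensities was taken. Of 28973 features, 12598 received 1 gene symbol and 16375 none: the GRCh38.p14 gene table named 12596 through their RefSeq accession, and the platform annotation alone named 2. A gene was represented by its brightest feature. Beyond the S100 symbols, genes were named by a rule: TRPS1, 6 partners, up to 3 called genes in each direction of 10 lists, 5 measured neighbours on each side of each gene and the 3 genes most alike in their values; markers shown outside it were chosen after their values were seen. The members and lists were chosen with earlier results of these data known. Some genes that entered the counts are left unnamed. The call rule was tested on simulated data with changes planted only in genes of a mean brightness well above background. That test did not measure false calls and does not cover a gene at background on 1 array, such as S100A2. The work used pandas 2.3.3, numpy 2.4.6 and statsmodels 0.14.6 in Python 3.11.15, with figures by matplotlib 3.10.9.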

Additional observations from a re-analysis of the deposited data

How the results depend on the processing

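With 1 array per group, no replicate could be left out. No paired analysis was possible because each group had 1 array. The log2 differences of S100A1, S100A2 and S100P moved by less than 1.5-fold under median-centring, quantile normalization and lowess correction (span 0.4). The mean over features returned the same values, since each of the 3 genes has 1 feature, and they had no value over the accessions of the second table, which holds no feature of the 3 genes. At a 3-fold threshold S100A1 and S100P were no longer called, and with both arrays above background S100A2 was not. The count of other S100 genes called was 0 in each direction under all 11 alternatives run, although S100A16 was the only S100 gene left over the accessions of the second table. At the 1.5-fold threshold this rests on the brightest feature of S100A13, a 1.49-fold difference downward. Its other features above background, with log2 differences of -0.87, -0.81 and -0.88, lay past 1.5-fold. The counts over all genes, 263 higher and 165 lower, were 958 and 588 at a 1.5-fold threshold, 46 and 41 at 3-fold, 81 and 77 with both arrays above background, 545 and 440 without a background filter, and 545 and 435 with the median olfactory receptor level as background. Over the accessions of the second table the counts were 126 higher and 155 lower, so that more genes were called lower there. The distance of the NC reading of S100A2 to background limits its fold to a bound.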

Other observations

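The genes of the cornified envelope and of the epidermal differentiation complex, which lie beside the S100 genes on chromosome 1 for the most part, had 16 of 45 members measured and 7 above background. Over these 7 the median log2 difference was -0.17, and 1 gene was called lower and 0 higher, beside 2.37% and 3.78% of all genes above background. LCE1D, a late cornified envelope protein, had intensities of 689 and 337, a log2 difference of -1.03 or a 2.04-fold difference downward, with the shTRPS1 value close to background. Chosen after their values were seen, IVL, the envelope precursor involucrin, had 596 and 1041 (log2 difference 0.81) and EVPL, envoplakin, 2186 and 3933 (0.85), while LCE1A had 975 and 633 (-0.62) and TGM1, the transglutaminase that crosslinks the envelope, 535 and 327 (-0.71).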
